A study of Mus musculus with 4 samples.

Results

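A 3 Mb stretch of distal mouse chromosome 4 that holds a cluster of zinc finger genes is described here through 2 lists of ChIP-seq peaks for HA-tagged Fbxl10. Its members are all peaks whose midpoint lies on chromosome 4 from 145000001 to 148000000 (mm10). They number 114 of the 5497 peaks of the induced list and 146 of the 10532 peaks of the non-induced list. The stretch was chosen with the peaks in view, so its many peaks and its overlap between lists are given as a description, with no test.

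Both lists come from mouse embryonic fibroblasts (MEFs) of a gain-of-function model that carries HA-tagged Fbxl10, a histone demethylase also called Kdm2b. In the induced group doxycycline at 1 µg/ml switched the tagged protein on for 48 hours, and the label of the non-induced group gives no doxycycline. Chromatin of each group was precipitated with an HA antibody. The promoter that drives the transgene, the number of embryos and the mouse strain are not stated in the labels. There was 1 list per group, so no value has a replicate check. Where shares carry an interval, it is the exact 95% binomial (Clopper-Pearson) interval, which covers counting error only and treats neighbouring peaks as independent.

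Fbxl10 binds DNA through a zinc finger of the CXXC type that recognises unmethylated CpG, and it is known to bring a Polycomb complex to CpG-rich promoters. The genes of the cluster belong to a different class, the KRAB zinc finger genes. Their proteins bind DNA through arrays of zinc fingers and silence chromatin through the corepressor Trim28, above all at transposable elements. Such genes often lie side by side as copies of one another, and distal chromosome 4 of the mouse is one of these places.

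The annotation (RefSeq, GRCm38.p6, the coordinates of mm10) places 92 genes in the stretch, of which 28 are protein-coding and 56 are pseudogenes. Zinc finger genes, taken as those named Zfp and Rex2, make up 17 of the coding genes. The other 11 are Gm42346, Gm13212 and 9 flanking genes. Promoter sequences were given for 13 of the 17 zinc finger genes. The 250 bases before the start site are shown for 3 of them with near-identical promoters (Rex2, Zfp600 and Zfp979), for the 1 whose promoter holds a peak (Zfp984) and its closest copy (Gm13212), and for the flanking gene Mfn2. They are RefSeq sequences of GRCm38.p6, written 5′ to 3′ on the strand of the gene, and capitals mark each CG dinucleotide, the step that the CXXC finger recognises when unmethylated.
Rex2, chr4:147021600-147021849, plus strand: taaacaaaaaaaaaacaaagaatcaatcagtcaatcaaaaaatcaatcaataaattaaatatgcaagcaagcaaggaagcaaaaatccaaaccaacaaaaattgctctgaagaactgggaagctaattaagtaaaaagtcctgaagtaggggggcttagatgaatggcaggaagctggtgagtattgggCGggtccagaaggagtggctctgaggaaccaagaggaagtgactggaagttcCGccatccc
Zfp600, chr4:146156577-146156826, plus strand: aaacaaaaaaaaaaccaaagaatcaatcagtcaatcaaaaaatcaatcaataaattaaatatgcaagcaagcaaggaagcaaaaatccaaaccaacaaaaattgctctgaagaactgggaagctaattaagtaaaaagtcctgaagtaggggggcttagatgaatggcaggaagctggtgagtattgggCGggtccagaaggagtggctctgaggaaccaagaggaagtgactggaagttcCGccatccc
Zfp979, chr4:147642509-147642758, minus strand: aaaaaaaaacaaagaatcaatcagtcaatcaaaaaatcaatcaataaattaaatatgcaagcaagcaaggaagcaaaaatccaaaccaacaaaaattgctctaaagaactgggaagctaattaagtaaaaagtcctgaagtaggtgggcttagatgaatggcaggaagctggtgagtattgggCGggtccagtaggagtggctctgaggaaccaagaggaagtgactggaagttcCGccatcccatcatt
Zfp984, chr4:147809789-147810038, minus strand: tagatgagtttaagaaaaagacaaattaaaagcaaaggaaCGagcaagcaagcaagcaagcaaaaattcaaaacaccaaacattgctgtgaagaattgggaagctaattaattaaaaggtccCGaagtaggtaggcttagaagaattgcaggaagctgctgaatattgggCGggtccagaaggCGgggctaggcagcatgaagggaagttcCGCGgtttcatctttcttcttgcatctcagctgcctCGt
Gm13212, chr4:145584950-145585199, plus strand: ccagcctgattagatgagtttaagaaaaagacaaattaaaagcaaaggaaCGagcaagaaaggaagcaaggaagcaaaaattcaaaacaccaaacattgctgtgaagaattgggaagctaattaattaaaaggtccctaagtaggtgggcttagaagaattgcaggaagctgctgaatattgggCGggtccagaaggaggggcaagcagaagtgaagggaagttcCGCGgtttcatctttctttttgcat
Mfn2, chr4:147904662-147904911, minus strand: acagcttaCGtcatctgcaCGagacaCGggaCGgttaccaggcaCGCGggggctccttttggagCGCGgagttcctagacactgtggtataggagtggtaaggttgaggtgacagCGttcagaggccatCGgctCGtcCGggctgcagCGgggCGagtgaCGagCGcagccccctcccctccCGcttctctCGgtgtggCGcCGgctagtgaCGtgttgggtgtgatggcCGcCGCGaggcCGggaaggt

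Many zinc finger promoters of the cluster resemble each other to differing degrees, and others do not. Over windows of 300 bases that end 50 bases past the start site, Zfp600 and Rex2 were 99.3% identical although Zfp992 and Zfp981 lie between their start sites. Zfp979 was 94.8% identical to both. For Zfp600 these values come from the window printed above. A second Zfp600 window, with its start site at 146157690, was 49.4% identical to that of Rex2. The highest identity to any other promoter of the stretch was 52.4% for Zfp993 and 52.2% for Zfp933. Of 116 pairs of zinc finger promoters from different genes, 20 were over 80% identical and 52 over 60%, and the median was 51.9%. Of 85 pairs of other coding promoters of the stretch none was over 60%, the highest was 53.1%, and the median was 48.7%. Of 224 mixed pairs, of a zinc finger and another coding promoter, 11 were over 60%, all with Gm13212. Gm13212 counts as other coding by its name, although its promoter resembles those of zinc finger genes. The longest run of bases shared by the 5 cluster promoters printed above is TATTGGGCGGGTCCAG. This run, searched on both strands in all 32851 promoter windows of the genome table, occurs in 9 (0.0274%), each time on the strand of the gene. All lie in the cluster, 8 in zinc finger windows (Rex2, Zfp600, Zfp979, Zfp980, Zfp982, Zfp984, Zfp985 and Zfp988) and 1 at Gm13212. The run was noticed in windows chosen after their identity and peaks were seen, and the 5 windows that define it hold it by construction. Of the 9 windows, 1 held an induced peak (Zfp984) and 0 a non-induced one. The labels do not say how reads that match several copies were treated. For near-identical copies, the copy at which a peak is placed is therefore uncertain.

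Peaks of both lists lay among the zinc finger genes and also before the first of these, Zfp990, in and around Gm42346. An induced peak from 147982636 lay past the last zinc finger gene, among the flanking genes. The 9 coding genes on the flanks were themselves touched by no peak. Induced peaks ran from 145390120 to 147983230 and non-induced peaks from 145405408 to 147813105. Vps13d, a lipid transfer protein, and the TNF receptor family genes Tnfrsf1b and Tnfrsf8 lie before the first peak. They were 75.0 kb or more from any induced peak and 90.2 kb or more from any non-induced one. After the last zinc finger gene come Miip, the retrovirus restriction gene Fv1, the mitochondrial fusion gene Mfn2, the collagen-modifying Plod1, 2510039O18Rik and the natriuretic peptide gene Nppb. None of these genes was touched by a peak of either list. The nearest was an induced peak 2.56 kb from Nppb, with a score of 59.7, while the nearest non-induced peak lay 173 kb from that gene.

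The edges of the stretch fall in sequence without peaks. The next induced peaks outside lay 2.76 Mb before (score 98.9) and 165 kb after the stretch (55.2), and the next non-induced peaks 1.13 Mb before (54.6) and 4.03 Mb after (99.2). The 3 Mb before held 2 induced and 5 non-induced peaks, and the 3 Mb after held 7 induced and 0 non-induced ones. Cluster peaks covered 171 kb (induced) and 168 kb (non-induced), or 5.71% and 5.62% of the 3 Mb. The cluster thus held 25.9% of the 441 induced peaks of chromosome 4 and 18.3% of its 798 non-induced peaks.

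**Figure D1:**
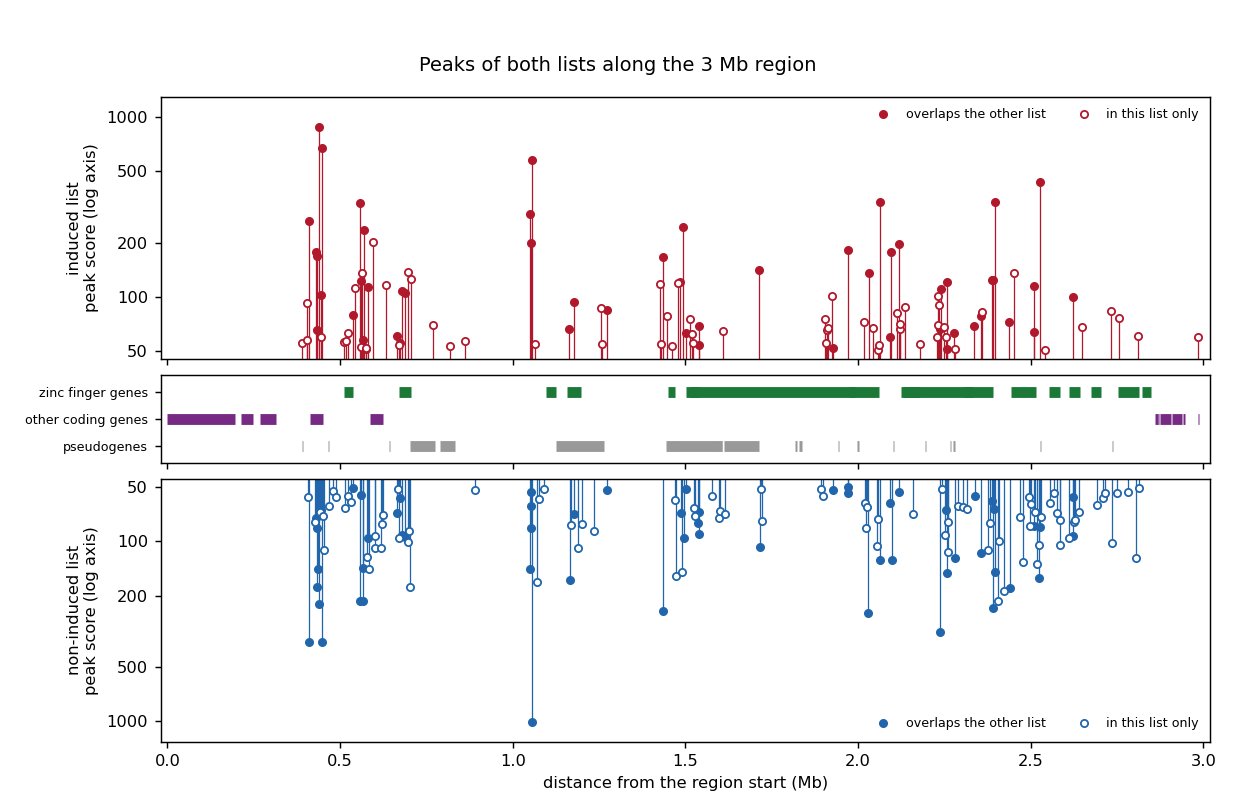
Peak scores (log axes) against the distance from the region start in Mb, with induced peaks above, non-induced peaks below, mirrored, and genes between them; filled points overlap a peak of the other list. The highest points of both lists stand at like distances, near 0.4 and 1.1 Mb, and the flanking coding genes at both ends stand free of peaks.

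Peaks were spread unevenly along the stretch. Of its 30 bins of 100 kb, 22 held peaks of both lists and 5 held none. The most in a bin was 16 for either list, at 145500001 to 145600000 for induced peaks and at 145400001 to 145500000 for non-induced ones. Before the first peak of either list lay 390 kb of the stretch. Between peaks, the longest spans without a peak of either list were 171 kb (146721943 to 146893414, with 5 genes), 170 kb (147813106 to 147982635, with 7 genes), 158 kb (145891447 to 146049890) and 153 kb (146273396 to 146426219). Neither of the last 2 spans holds an annotated gene. Numbers of the lists differed in places. The bin from 147400001, over Zfp982, held 2 induced and 9 non-induced peaks, and the bin from 147500001 held 4 and 12. The bin from 146900001 held 7 induced and 3 non-induced peaks, and that from 147100001 held 6 and 2.

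Overlap between the lists was frequent in the cluster. Counting an overlap from 1 bp, 53 of its 114 induced peaks (46.5%, 37.1 to 56.1) were shared with the non-induced list, against 3.37% in the whole induced list. Among its 146 non-induced peaks 58 (39.7%, 31.7 to 48.1) were shared with the induced list, against 1.78% in the whole non-induced list. This stretch held 28.6% of all 185 induced and 31.0% of all 187 non-induced peaks that are shared. Since it was chosen for such peaks, nothing is read from the difference. In the remainder of the lists, 2.45% of induced and 1.24% of non-induced peaks were shared.

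Peaks that were not shared often had a neighbour from the other list. The 61 unshared induced peaks lay a median of 4877 bp from a non-induced peak, and the 88 unshared non-induced peaks 5709 bp from an induced one. In the rest of the series these medians were 112785 bp for induced and 265553 bp for non-induced peaks. When all peaks within 10 kb of each other were joined, 60 groups resulted, of which 33 held peaks of both lists. These 33 held 103 of the 114 induced and 123 of the 146 non-induced peaks. Only induced peaks stood in 10 groups, and only non-induced peaks in 17. Where peaks are dense, short distances and mixed groups also arise without any link between the lists. The stretch was chosen for its many peaks, so nothing is read from these values.

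Scores are the authors' value for each peak, begin at 50 in both lists, and have no stated formula or common scale. They are used to rank peaks within a list. Cluster peaks had a median score of 75.5 (induced) and 77.0 (non-induced), against 66.4 and 60.1 in the rest of each list. Scores of at least 100 were given to 36.8% (28.0 to 46.4) of the induced and 31.5% (24.1 to 39.7) of the non-induced peaks of the cluster. In the rest of the lists these shares were 20.9% for induced and 3.20% for non-induced peaks. The cluster gave 6 of the 20 highest induced peaks and 4 of the 20 highest non-induced peaks, and 11 and 26 of the highest 100. It held 2.07% of all induced and 1.39% of all non-induced peaks. The stretch was chosen with its peaks in view, so nothing is read from these differences. Median widths in the cluster were 1126 bp (induced) and 889.5 bp (non-induced), against 754 bp and 586 bp in the rest.

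The highest induced peaks lay in and around Gm42346, an uncharacterised coding gene annotated from 145412232 to 145451249. Here and below, before, past, begin and end follow the coordinates, not the strand of a gene. The peak from 145435438 to 145441399 inside this gene had a score of 884, the fifth highest of the induced list. It covered the whole of 2 non-induced peaks, with scores of 142 and 223. A second induced peak at the end of the gene, from 145446332 to 145450929, had a score of 677 and covered a non-induced peak with a score of 362. In all, 7 induced and 9 non-induced peaks touched Gm42346. Just before the gene, an induced peak from 145407371 to 145409557 (score 264) overlapped a non-induced peak that ranked higher in its own list (363). These peaks of both lists stood in and just before the same gene.

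The highest non-induced peak of the cluster lay far from any coding gene. It ran from 146054963 to 146058087, had a score of 1011 and was the third highest of its list. The induced peak over it (146054649 to 146057985) had a score of 575 and ranked ninth in its list. It covered 96.7% of the non-induced peak. The pseudogene Gm13036 begins within 1 kb, and the nearest coding gene, Zfp987, lies 39225 bp away. Beside it stood 2 more induced peaks, with scores of 288 and 200, each of which overlapped 2 non-induced peaks. Non-induced scores there were 143 and 84.3 at the first and 63.5 and 53.0 at the second.

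Around Zfp978, Rex2 and Zfp982 high peaks of the lists also met. Past the end of Zfp978, an induced peak from 147393699 to 147398579 had a score of 337, and the non-induced peaks it overlapped had 149 and 66.2. Inside Zfp978, 2 induced peaks with scores of 66.6 and 111 overlapped a non-induced peak from 147236978 to 147240049 with a score of 319. The first met it over 626 bp and the second over only 99 bp. Inside Rex2 a non-induced peak (147028640 to 147031403, score 249) lay under an induced peak with a score of 136. Beyond the end of Rex2, the noncoding gene 4933438K21Rik had an induced peak of 337 and a non-induced peak of 127. After Zfp982, at the pseudogene Gm13141, an induced peak of 437 (147523281 to 147527498) covered non-induced peaks of 160 and 83.4. Between Zfp990 and Gm13212, at 145556953 to 145559008, the induced score was 333 and the non-induced 214.

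Some high peaks of the cluster had no overlap in the other list. The highest of these in the induced list lay inside Gm13212 (145593406 to 145595304) with a score of 201, followed by peaks inside Zfp980 (137) and Zfp982 (136). The highest in the non-induced list, from 147404475 to 147406394 and 12448 bp from Zfp978, had a score of 216 and ranked 32nd in its list. Next came a peak of 7413 bp from 147419197 to 147426609, nearest to Zfp982, with a score of 190, and then one inside Zfp980 (179).

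Over all overlaps there were 62 pairs, in which 53 induced and 58 non-induced peaks took part. The overlap had a median of 790 bp and ranged from 61 to 4129 bp. In 25 pairs the shorter peak lay wholly inside the longer, and in 53 at least 50% of it did. Midpoints differed by a median of 478 bp. The ratio of induced to non-induced score ran from 0.209 to 6.21 with a median of 1.20. The induced score was the higher number in 36 pairs and the non-induced in 26, but by rank as a share of its own list the induced peak stood higher in 24 pairs and the non-induced in 38. The direction thus turns with the scale, and none is read from the pairs. Across the 62 pairs, which share peaks in part, Spearman's rho between the scores was 0.341. Score also went with width within each list of cluster peaks (rho 0.743 over the 114 induced and 0.670 over the 146 non-induced peaks), so the parts of width and score in the overlap cannot be told apart. Shared peaks had median scores of 113 (induced) and 91.5 (non-induced), and unshared ones 66.2 (induced) and 73.0 (non-induced).

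**Figure D2:**
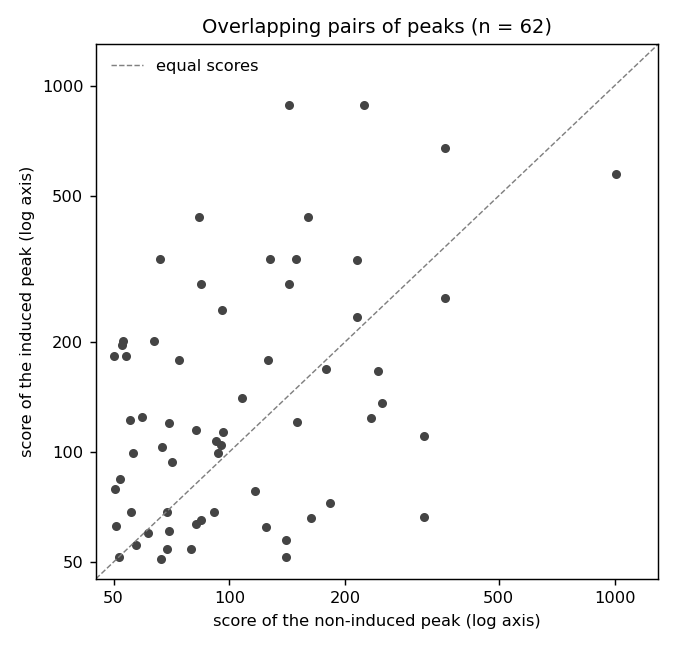
Score of the induced peak against that of the non-induced peak it overlaps, for the 62 pairs of the cluster (both axes log); the dashed line marks equal scores, which come from lists with no stated common scale. Points lie on both sides of the line, 36 above and 26 below, whereas by rank within its own list the induced peak is higher in 24 pairs and the non-induced in 38.

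Most peaks of the cluster lay away from the ends of coding genes. Within 1 kb of either end of a coding gene, here called a border, were 13 of 114 induced (11.4%, 6.21 to 18.7) and 17 of 146 non-induced peaks (11.6%, 6.93 to 18.0). In the rest of the lists borders took 47.9% (46.5 to 49.2) of induced and 3.03% (2.71 to 3.38) of non-induced peaks. The cluster's border share was thus below that of the rest in the induced list and above it in the non-induced list. Inside coding genes and away from borders were 46.5% of the induced and 54.8% of the non-induced cluster peaks. Between genes were 32.5% and 26.7%, and on noncoding genes or pseudogenes alone 9.65% and 6.85%. The ends of pseudogenes and noncoding genes were not counted as borders here. A peak counted as between genes can thus lie within 1 kb of such an end, as at Gm13036. How much of the stretch lies within 1 kb of a coding gene end was not computed. No test was made, because the stretch was picked by its peaks.

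**Figure D3:**
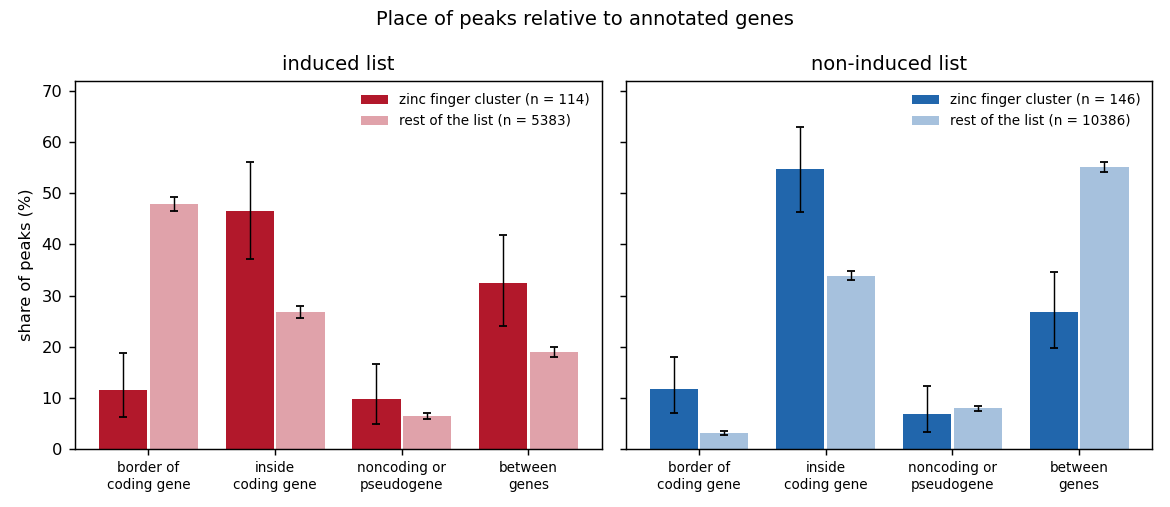
Share of peaks (%) at borders of coding genes, inside them, on noncoding genes or pseudogenes and between genes, for the cluster (dark bars) and the rest of each list (pale bars), with exact 95% binomial intervals as error bars. The border share of the cluster is near 11% in both lists, while that of the rest is 47.9% for induced and 3.03% for non-induced peaks.

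Of the 17 zinc finger genes 8 had an induced border peak (47.1%, 23.0 to 72.2) and 8 a non-induced one. Over all coding genes the shares were 13.4% for the induced and 1.59% for the non-induced list, and among 381 zinc finger genes elsewhere, by the same naming rule, 13.6% and 1.05%. These counts follow the density of peaks for which the stretch was chosen. Both lists marked 5 genes, Zfp978, Zfp980, Zfp981, Zfp984 and Zfp990. Zfp978 had the highest border scores, 124 induced and 234 non-induced, from peaks that overlap at its end of higher coordinate. Zfp981 had 68.6 and 91.0, Zfp980 53.7 and 95.2, Zfp990 79.1 and 50.3, and Zfp984 75.8 and 50.3. At Zfp980 and Zfp984 the peaks of the lists did not overlap.

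Other zinc finger genes had a border peak in 1 list. In the induced list these were Zfp993 (75.4), Zfp991 (54.3) and Rex2 (53.7). In the non-induced list they were Zfp992 (156), Zfp985 (105) and Zfp979 (95.4), the last also known as Ssm1b for its part in strain-specific DNA methylation. Zfp534, Zfp600, Zfp933, Zfp982, Zfp987 and Zfp988 had none. Borders are the outer ends of a gene, so they can miss start sites that lie inside it. Non-induced peaks lay 646 bp from the Zfp982 start site at 147500686 and 516 bp from the Rex2 start site at 147021850. In all, 12 induced peaks with a median score of 65.7 and 13 non-induced peaks with a median of 76.1 stood at zinc finger borders. Of the other coding genes, Gm42346 had border peaks in both lists and Gm13212 in the non-induced list alone (71.2).

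Pseudogenes, the remains of genes or of gene copies, form the most numerous class of the stretch. Of the 56, 15 had an induced border peak (26.8%, 15.8 to 40.3) and 11 a non-induced one (19.6%, 10.2 to 32.4), against 0.584% and 1.22% of all 10622 pseudogenes. These counts too follow the density of peaks. Both lists marked 6, Gm13036 (575 induced and 1011 non-induced), Gm13141 (437 and 73.3), Gm21978 (136 and 55.1), Gm13155 (99.1 and 93.1), Gm13135 (62.5 and 124) and Gm13226 (51.7 and 121). Several of the others are remains of vomeronasal receptor genes, which encode pheromone receptors. Among these, Vmn2r-ps16, annotated over 160 kb, had an induced border peak (78.0), and Vmn2r-ps15 (179) and Vmn2r-ps20 (104) had non-induced ones. Of the 8 long noncoding genes, 2 had an induced and 4 a non-induced border peak, and 4933438K21Rik had both, against 4.82% and 1.36% of all 12731 such genes.

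Counted over their whole length, most zinc finger genes held peaks. Induced peaks touched 12 of the 17 and non-induced peaks 14, against 16.5% and 10.2% of all coding genes. The genes of the cluster are long, with a median of 33.7 kb for the zinc finger genes against 17.1 kb for all coding genes, and some models overlap, so 1 peak can count for several genes. Zfp978, annotated over 267 kb, was touched by 19 induced and 18 non-induced peaks. Zfp993, annotated over 479 kb, was touched by 14 and 17, and Rex2 by 5 and 6. Zfp982 had 3 induced and 7 non-induced peaks, Zfp979 had 1 and 6, and Zfp985 had 0 and 4. Zfp987 and Zfp933 were touched by none in either list.

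Peaks over those start sites of the stretch that have a promoter window were few. Zfp978, Zfp990, Zfp991, Zfp992 and Gm42346 have no window, although each had a border peak in at least 1 list. Their start sites were thus not examined. Of the 40 promoter windows 1 held an induced peak (2.5%, 0.0633 to 13.2), against 6.92% of all 32851 windows. A non-induced peak was held by 0, against 0.228%. A count of 0 of 40 allows a share of up to 7.5% (3 counts of the total), so neither share can be told from that of all windows. The 1 window was that of Zfp984, printed above, which lay under an induced peak from 147809208 to 147810101 with a score of 60.3. Its copy at Gm13212, 87.6% identical, had its nearest induced peak 3320 bp from the start site and its nearest non-induced peak 1364 bp. For Rex2 these distances were 4003 bp and 516 bp, for the near-identical Zfp600 window 6769 bp and 7395 bp, and for Zfp979 4533 bp and 3437 bp. As the peaks were placed, promoters of nearly the same sequence stood at different distances from them. For such copies the placement is uncertain, so nothing is read from the distances. Within 1 kb of the start site, 4 of the 16 zinc finger windows had an induced and 4 a non-induced peak (25% each). Of all windows 10.1% and 0.798% did. Over all 40 windows of the stretch these shares were 10% and 10%. The same induced peak, from 146513186 to 146514306, was counted for both Zfp981 and Zfp993.

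The zinc finger promoters of the cluster held few CG dinucleotides. Their median was 4.5 per window of 300 bases, with a range of 1 to 16, against 7 in all windows. At least 1 CG was present in each of the 16, as in 94.6% of all windows. Windows outside the stretch that held an induced peak had a median of 24, and 391 windows of 324 zinc finger genes outside it had a median of 14. Of these 391 windows 12.3% held an induced peak and 0 a non-induced one. The Zfp984 window had 9, of which 7 lie in the 250 bases printed above. The flanking genes were richer in CG, with a median of 15 over 13 windows, and the window of the Mfn2 promoter printed above had 31, of which 25 lie in the 250 bases printed. No flanking window held a peak, which by the same limit of 3 counts allows a share of up to 23.1% of 13 windows.

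**Figure D4:**
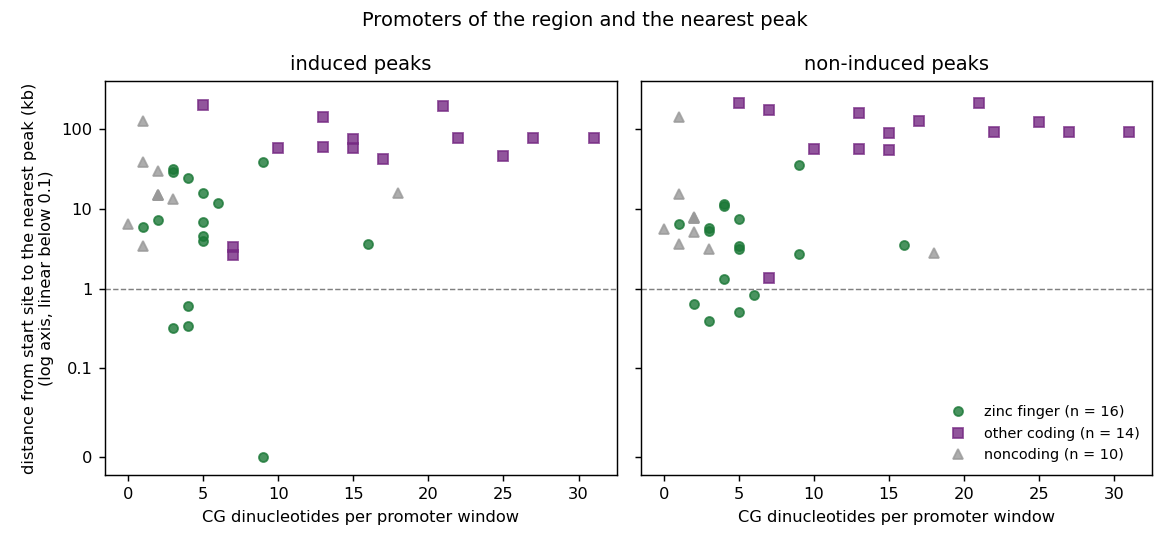
Distance from each start site to the nearest peak in kb (log axis, linear below 0.1) against the number of CG dinucleotides in its 300-base window, for induced (left) and non-induced peaks (right); each point is 1 promoter window of the stretch and the dashed line marks 1 kb. The 1 point at 0 is Zfp984 in the induced list, and the windows with more than 20 CG dinucleotides, all of flanking genes, stand far above the dashed line in both panels.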

How the data were processed

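The data are peak lists from HA ChIP-seq of induced and non-induced MEFs, 1 list each. The labels' protocols give 7 µg of chromatin and 5 µg of antibody per precipitation, and speak of 3 independent samples, whose relation to the lists is not stated. The submitters' processing notes name Bowtie2 and mm10, and the authors used MACS, as peak names in the deposited files show. The deposited lists give positions and, per peak, a score of unstated formula. Without counts in the files, depth cannot be given. Input libraries were not analysed here.

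Lists were assigned by their marks w and wo, read as with and without doxycycline. Starts were counted from 1. Members, gene classes and rules were chosen with earlier results of these data known. The rule was to name the genes with border peaks, those nearest the 10 highest peaks of each list and of the pairs, and up to 10 others. Not all pseudogenes and noncoding genes with a border peak in 1 list alone are named. The place classes, the joining of peaks within 10 kb, the 100 kb bins and the promoter identity, CG and shared-run descriptions were added after the peaks were seen. Flanking genes are named beyond that rule to show the edges. Identity came from global alignment (match 1, mismatch -1, gap opening -2, extension -0.5; Biopython 1.88). Shared peaks were counted in Python 3.11.15 (pandas 2.3.3, SciPy 1.17.1), and the count differed from that of bedtools 2.31.1 by 0. The overlap and border functions were tested on simulated data. Alternatives were overlap by 50% of the shorter peak, gaps up to 1 kb, borders of 500 bp or 5 kb, merged peaks, scores from the joint median of 61.6 upward, and equally long lists. No genome sequence was used, so peak sequences are not shown.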

Additional observations from a re-analysis of the deposited data

How the results depend on the processing

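Of 32 values recomputed under the alternatives, 26 stayed within 1.5 times the value given, or for shares within its interval, and 6 did not. With gaps of up to 1 kb counted as shared, the shared part of the cluster was 57.9% of induced and 49.3% of non-induced peaks. With a border window of 5 kb, 15 coding genes had an induced border peak. At scores at or above the joint median, 5 zinc finger genes had an induced border peak. The cluster held 2.27% of the non-induced list at those scores and 2.04% with lists of equal size, against 1.39% in the full list. The first 3 of these values come from wider windows. The others come from lists cut by score. In the full non-induced list, before any cut, the cluster's peaks had a higher median score than the rest (77.0 against 60.1). No paired analysis was possible because each group has 1 list. The lists carry no read depth, the score has no stated scale, and the placement of reads among near-identical copies was not tested.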
